A study of Bos taurus with 16 samples.

Results

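The comparison of day 18 with day 14 asked how the endometrium, the inner lining of the uterus, differed between these days after insemination in cattle. It covers 8 of the 16 RNA-seq libraries of the series, namely the 4 titled day 18 and the 4 titled day 14, chosen by their titles alone. Each library came from an endometrial biopsy of a Holstein virgin heifer that was sexually mature, not lactating, at least 7 months old and at least 340 kg in weight. All animals of both days had been synchronised with a GnRH analog, an intravaginal progesterone device and a prostaglandin F2α analog, inseminated at a set time with Holstein semen and allotted at random to a day. The groups therefore differ, by their labels, only in the day of biopsy. Neither the presence of a conceptus in each animal nor the part of the uterine horn that was sampled is given in the labels used here.

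In cattle, the conceptus elongates in the uterine lumen in the days before it attaches, and its trophectoderm secretes interferon tau. This interferon acts on the endometrium, where it restrains the oxytocin-driven pulses of prostaglandin F2α that would end the life of the corpus luteum, and it induces interferon-stimulated genes. Progesterone from the corpus luteum sustains the secretion of the endometrial glands, on which the conceptus feeds before implantation. Where no conceptus signals, the corpus luteum regresses and the animal returns to oestrus. The files hold Ensembl gene IDs with no symbols beside them, so none of the genes of these pathways could be followed by name, and nothing is said of the function of the genes below. For the same reason the tissue label was not checked against marker genes, and the cell makeup of the biopsies is not known here. In bulk tissue, a change in the number of cells of a type and a change of RNA per cell cannot be told apart.

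The libraries of day 18 were less alike than those of day 14 before any gene was compared. Gene reads ran from 19193382 to 24291006 per library on day 14 and from 18959090 to 21757330 on day 18. Across the 16331 gene IDs with enough reads to be tested, the 6 pairs of day 14 libraries correlated at 0.936 to 0.971 on the log2 CPM scale (Pearson's r across genes, a description), where CPM is a read count scaled to a common library total. The 6 pairs of day 18 libraries correlated at 0.850 to 0.948. Day 18 replicate 1 correlated on average at 0.958 with the 4 day 14 libraries and at 0.910 with the other day 18 libraries. Day 18 replicate 2 had the lowest averages, 0.845 with day 14 and 0.866 with its own day. Day 18 replicate 3 averaged 0.924 with day 14, 0.888 with its own day and 0.947 with the day 5 libraries. Replicates 1, 2 and 4 of day 18 averaged 0.901, 0.868 and 0.888 with day 5. The day 5 libraries averaged 0.871 to 0.939 with the rest of their own day. Whether the labels of day 18 replicates 2 and 3 are right, and whether these animals were at the same stage as the others, was not tested, and each day 18 value below rests on the labels as given. In replicates 2 and 3 of day 18, 24.6% and 24.7% of mapped reads lay in no gene feature. This compares with 30.4% and 30.7% in replicates 1 and 4 and 27.6% to 33.4% on day 14. The share of unmapped reads, out of mapped and unmapped reads together, was 7.998% to 11.04% on day 18 and 7.749% to 7.992% on day 14. Day 18 replicate 1, at 7.998%, was almost level with the top of day 14, and the share was highest in day 18 replicate 2. The 10 most abundant genes took 11.9% of the gene reads of replicate 2, against at most 8.18% on day 14. The part of these read shares in the results was not tested. Both replicates enter every comparison unless stated.

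No gene passed the adjusted threshold of 0.05 between day 18 and day 14, 0% of those tested, by edgeR's quasi-likelihood test with Benjamini-Hochberg adjustment in 1 fit of all 16 libraries. The smallest adjusted p reached was 0.0790. Before adjustment, 1857 genes or 11.4% had a p under 0.05. Of these, 1320 (8.08% of all tested) were higher on day 18 and 537 (3.29%) were lower. The ratio of higher to lower genes grew with the size of the fitted difference. At a difference of at least 2-fold there were 720 higher against 234 lower genes, and at 4-fold or more 336 against 50. The 1857 genes went to 973 (5.89% of those tested in that fit) without day 18 replicate 2, of which 780 were among the 1857. DESeq2 called 279 genes at an adjusted p under 0.05, 222 higher and 57 lower. Limma-voom with library weights called 0, with 892 (5.46%) at an unadjusted p under 0.05. If no gene differed, a share of about 0.05 would be expected under that threshold. Counts near that share do not show that genes differ.

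**Figure D1:**
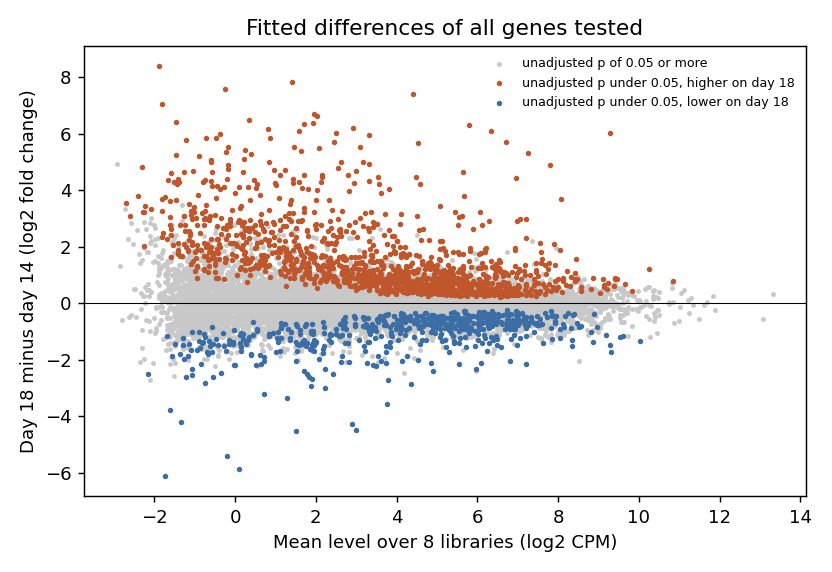
Fitted log2 fold change of day 18 minus day 14 for each gene tested (vertical axis) against its mean log2 CPM over the 8 libraries (horizontal axis), with genes at an unadjusted p under 0.05 in colour. Of the coloured genes, 1320 lie above the line at 0 and 537 below it, and 336 against 50 lie at 4-fold or more; none passed the adjusted threshold.

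The 4 genes given by ID were the 2 higher and the 2 lower on day 18 with the smallest edgeR p among genes of at least 1 log2 CPM whose libraries of both days did not overlap. Their separation was thus a condition of their choice and is not a result.

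The smallest p of all genes belonged to ENSBTAG00000007170, which was lower on day 18. On day 14 it was at 125.0, 99.2, 208 and 184 CPM in replicates 1 to 4, and on day 18 at 64.5, 46.7, 48.1 and 61.8 CPM. The day 18 libraries lay close together, with an SD of 0.24 on the log2 scale against 0.49 on day 14. The log2 difference was -1.48 ± 0.21 (SE, adjusted p = 0.0790 by edgeR, n = 4 per day), which is 2.79-fold. Its mean was 154 CPM ± 50.6 (SD, n = 4) on day 14 and 55.3 ± 9.20 on day 18. Days 5 and 10, for reference, had means of 58.3 CPM ± 7.35 and 175 ± 16.6. Day 18 replicates 2 and 3 had the lowest values of the day, and without them the log2 difference was -1.30 (adjusted p = 0.771).

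ENSBTAG00000050427 was also lower on day 18, by more and with more spread between animals. Its day 14 values were 64.2, 87.4, 46.4 and 22.3 CPM, and its day 18 values 6.97, 1.33, 2.15 and 8.18 CPM. Replicates 2 and 3 of day 18 were again the low pair, and the range among the 4 day 18 libraries was 2.53 on the log2 scale, against 1.97 on day 14. The log2 difference was -3.56 ± 0.60 (SE, adjusted p = 0.190 by edgeR). Without day 18 replicates 2 and 3 it was -2.87 (adjusted p = 0.771), a smaller difference in the same direction. On days 5 and 10 its means were 2.69 CPM ± 0.864 (SD, n = 4) and 30.8 ± 17.2.

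Of the higher genes, ENSBTAG00000052518 was at 109, 104, 136 and 122 CPM in the 4 day 14 libraries and at 293, 303, 304 and 172 CPM in those of day 18. Day 18 replicates 1, 2 and 3 were within a narrow band, and replicate 4 stood below them, nearer to day 14. The log2 difference was 1.19 ± 0.20 (SE, adjusted p = 0.190 by edgeR), or 2.28-fold, and its means on days 5 and 10 were 243 CPM ± 42.4 and 141 ± 26.7 (SD, n = 4). Without replicate 4 of day 18 the difference was 1.35, and this was then the 1 gene to pass the threshold (adjusted p = 0.0427 by edgeR). Without day 18 replicates 2 and 3 it was 0.97 (adjusted p = 0.771).

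ENSBTAG00000009733 was a gene of low level, at 1.29, 0.770, 1.67 and 1.02 CPM on day 14 and at 2.42, 13.4, 8.55 and 5.83 CPM on day 18. These values rest on 18 to 36 reads in each day 14 library and on 53 to 231 reads in each day 18 library. Replicate 1 was the lowest of day 18 and replicate 2 the highest, a range of 2.42 on the log2 scale against 1.02 on day 14. The log2 difference was 2.66 ± 0.48 (SE, adjusted p = 0.219 by edgeR), and 1.78 without day 18 replicates 2 and 3 (adjusted p = 0.771). Its means on days 5 and 10 were 7.70 CPM ± 2.80 and 1.79 ± 0.669 (SD, n = 4). In each of the 4 genes the day 18 mean was nearer to the day 5 mean than to the day 14 mean. A day 18 level far from day 14 was a condition of their choice, so this describes them and tests nothing. Genes with a day 18 mean nearer to day 5 were not counted over the whole table, because day 18 and day 5 would both be set against the same day 14 libraries.

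**Figure D2:**
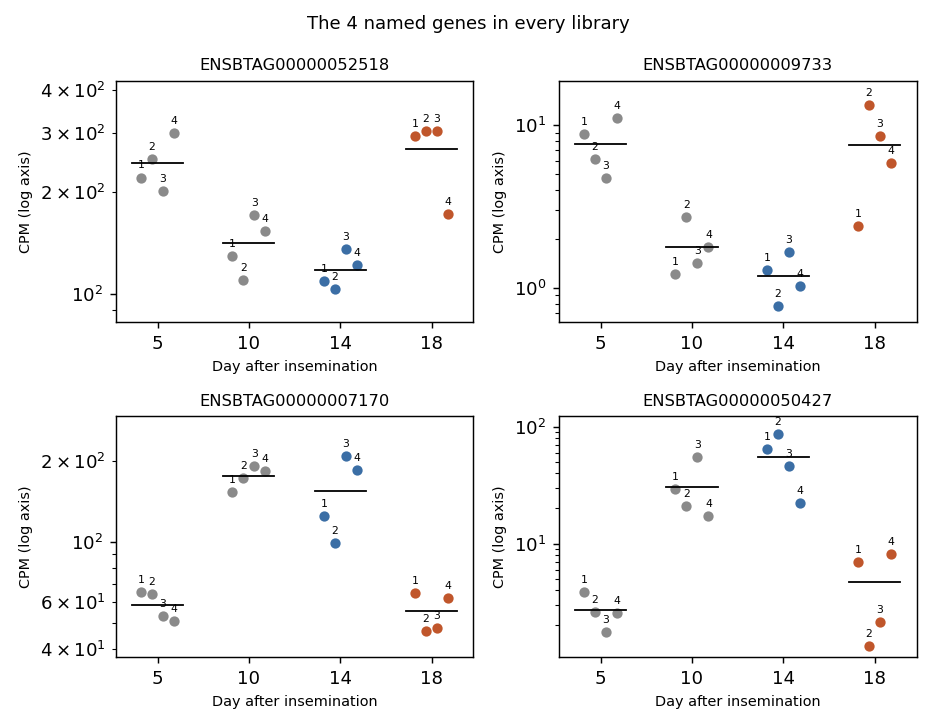
CPM of the 4 genes given by ID (vertical axes, log scale) in every library of days 5, 10, 14 and 18 (horizontal axes), with points numbered by replicate and a line at each day's arithmetic mean. For ENSBTAG00000050427 the day 18 libraries lie at 1.33 to 8.18 CPM and the day 14 libraries at 22.3 to 87.4 CPM.

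A full separation of the 2 days was uncommon over the whole table. In 351 genes (2.15% of those tested) every day 18 library lay above every day 14 library, and in 261 (1.6%) every day 18 library lay below. With so few libraries per day, some genes separate fully by chance, whatever the day. The number that chance gives was not set beside these counts, so they do not show how many genes differ between the days. Of the separated genes, 281 higher and 167 lower were among the genes at an unadjusted p under 0.05. Most of the genes at that threshold therefore overlapped between the days in at least 1 animal. Of the genes called by DESeq2, 89 of the 222 higher and 48 of the 57 lower showed no overlap. Its lower calls were mostly separated and its higher calls mostly not. Of all 279, 62.0% spanned more than 4-fold among the day 18 libraries, against 24.5% of all genes tested. These genes were called from the same libraries, so the counts describe them and test nothing.

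The largest fitted differences were seldom shared by all 4 animals of day 18 among the higher genes and more often among the lower ones. Of the 336 genes higher by 4-fold or more at an unadjusted p under 0.05, 42 lay above every day 14 library in all 4 day 18 libraries, 139 in 3, 128 in 2 and 27 in 1. The highest day 18 value was in replicate 2 for 257 of these 336 genes, in replicate 3 for 72, in replicate 4 for 6 and in replicate 1 for 1. Of the 50 genes lower by 4-fold or more, 20 lay below every day 14 library in all 4 day 18 libraries and 16 in 3. Replicate 2 was the lowest in 29 of the 50. These genes were picked by the same values, so the counts describe them and test nothing.

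Taken 1 library at a time, the day 18 animals departed from day 14 to very unequal extents. Day 18 replicate 1 had 155 genes at least 2-fold above the range of the 4 day 14 libraries and 160 at least 2-fold below it. Replicate 4 had 385 above and 257 below, replicate 3 had 634 and 498, and replicate 2 had 1281 and 1766. Replicate 2 had more genes below the range than above it, whereas replicates 3 and 4 had more above. To show how far a day 14 animal itself may lie from its own day, each day 14 library was set against the other 3, and so were the day 18 libraries. Day 14 replicates 1 to 4 then had 191, 1083, 302 and 559 genes at least 2-fold outside. Against the same sets of 3, day 18 replicate 1 had 410 to 606 genes outside, replicate 4 had 840 to 938, replicate 3 had 1253 to 1656 and replicate 2 had 3245 to 3591. Replicates 2 and 3 of day 18 were thus above all 4 day 14 libraries by this measure. Replicates 1 and 4 were below day 14 replicate 2, which alone set the top of the day 14 values, and each exceeded the day 14 library left out in the other 3 sets, replicate 4 by more.

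**Figure D3:**
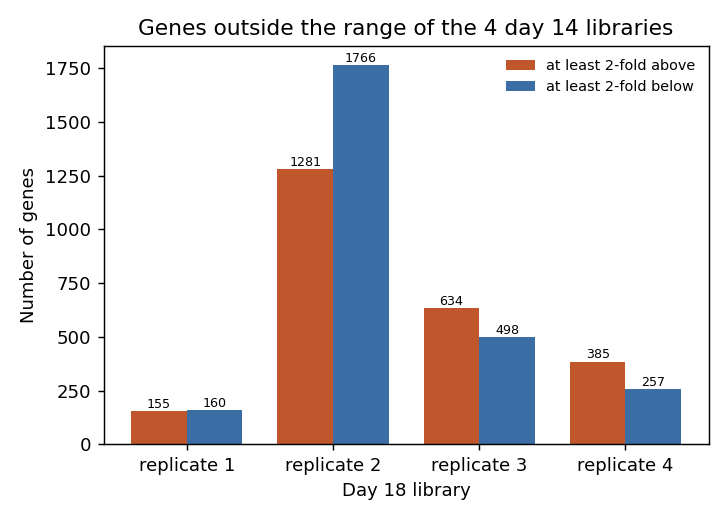
Number of genes (vertical axis) that lay at least 2-fold above or at least 2-fold below the range of the 4 day 14 libraries in each day 18 library (horizontal axis), on the log2 CPM scale. Replicate 2 has 1281 and 1766 such genes and replicate 1 has 155 and 160.

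Few genes left the day 14 range in the same way in every animal. In 2 genes all 4 day 18 libraries lay at least 2-fold above it, and in 4 genes at least 2-fold below it. The numbers were 46 and 53 for exactly 3 libraries, 325 and 342 for exactly 2, and 1659 and 1822 for exactly 1. In 155 genes 1 day 18 library lay at least 2-fold above the day 14 range while another lay at least 2-fold below it. Of all 27607 IDs, few had 0 reads on 1 day and at least 10 reads in a library of the other. IDs read on 1 day alone with fewer reads were not counted. Of the IDs with 0 reads in the 4 day 14 libraries, 27 had at least 10 reads in exactly 1 day 18 library. In 2 day 18 libraries 1 ID had them, and in 3 or 4 libraries 0 had them. Conversely, 4 IDs with 0 reads on day 18 had at least 10 reads in exactly 1 day 14 library.

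Gene by gene, the spread between animals was wider on day 18. The median SD of log2 CPM among the 4 libraries was 0.51 on day 18 and 0.33 on day 14, and in 12539 genes (76.8%) the SD was larger on day 18. On day 18, 4003 genes (24.5%) spanned more than 4-fold between the lowest and the highest animal, against 1479 (9.06%) on day 14. Replicate 2 was the highest or lowest library in 75.3% of those 4003 genes, replicate 3 in 54.9%, replicate 4 in 36.8% and replicate 1 in 33.0%. In 1333 of them replicate 2 stood alone at the bottom, at least 2-fold below the next library, and in 760 it stood alone at the top. Replicate 3 stood alone at the top in 799 and at the bottom in 379. On day 14 the extremes were shared by replicates 2 and 4, which were extreme in 66.5% and 64.8% of the 1479 genes. Between replicates 1 and 4 of day 18 the median gene differed by 0.40 on the log2 scale, within the 0.27 to 0.46 found between pairs of day 14 libraries, whereas the pairs of day 18 that held replicate 2 or 3 differed by 0.50 to 0.65. Among the pairs of day 18, those with replicate 2 or 3 thus differed most. The pair of day 18 replicates 1 and 4 still differed more than each day 14 pair except replicates 2 and 4, the next largest being 0.37.

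**Figure D4:**
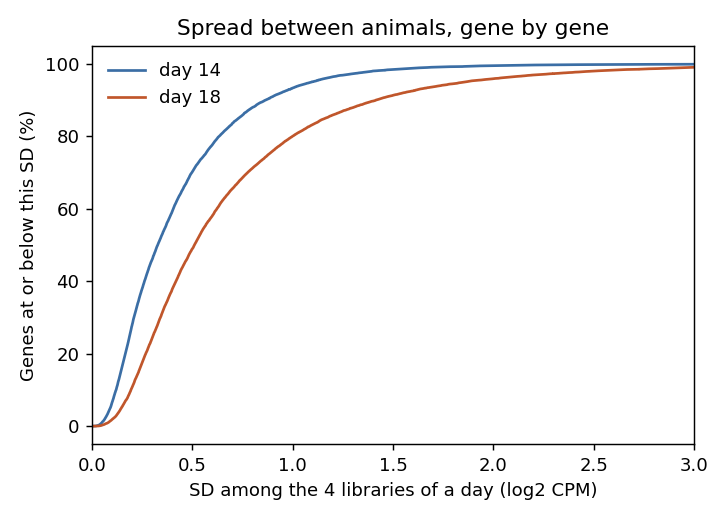
Share of the tested genes (vertical axis, %) whose SD of log2 CPM among the 4 libraries of a day is at or below the value on the horizontal axis, for day 14 and day 18. The day 18 curve lies to the right, with a median of 0.51 against 0.33.

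The spread was wider at every level of expression. In the 4083 genes with the lowest mean level, up to 2.07 log2 CPM, the median SD was 0.86 on day 18 and 0.58 on day 14, and in the 4083 with the highest level, from 5.84 log2 CPM, it was 0.37 and 0.22. The share of genes at an unadjusted p under 0.05 and higher on day 18 was 9.60% in the lowest group and 6.42% in the highest. The share lower on day 18 was 3.26% in the lowest group and 3.97% in the highest, so the surplus of higher genes was least among abundant genes.

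The precision of the fit of all 16 libraries sets what could be seen. The SE of the log2 difference had a median of 0.32 and was between 0.21 and 0.51 for the middle 50% of genes. For 8179 genes (50.1%) the unadjusted 95% interval of the difference lay wholly within 2-fold in either direction, and for 13542 (82.9%) within 4-fold. For the other genes the interval reached 4-fold or more in at least 1 direction. These intervals rest on the spread of all 4 days, and the median SD was smaller on days 5, 10 and 14 than on day 18. They may therefore be too narrow for a difference that involves day 18. The median difference over all genes was 0.03 on the log2 scale, with 8630 genes above 0 and 7701 below.

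The number of genes and the balance of higher and lower ones moved with the libraries in the fit. With all of them, 71.1% of the genes at an unadjusted p under 0.05 were higher on day 18. Leaving out day 18 replicate 2 gave 649 higher and 324 lower genes, and leaving out its replicate 1 gave 1764 and 856, or 66.7% and 67.3% higher, so that mainly the totals moved. The balance moved most, of the day 18 libraries left out singly, without replicate 3, with 1306 higher and 769 lower genes, or 62.9% higher. Leaving out day 14 replicate 4 moved it almost as far, with 960 higher and 554 lower genes, or 63.4% higher. It was 70.4%, 72.3% and 73.0% higher when day 14 replicate 1, 2 or 3 was left out. Without day 18 replicates 2 and 3 there were 510 higher and 407 lower genes, or 55.6% higher. Together these made up 5.47% of the genes tested, near the share that the threshold of 0.05 gives by chance. This last set held 473 of the 1857 genes found with all libraries. Leaving out day 5 replicate 3 as well, a library that stands apart on its own day and enters the shared estimate of spread, gave 768 higher and 696 lower genes, and still 0 past the adjusted threshold by edgeR.

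**Figure D5:**
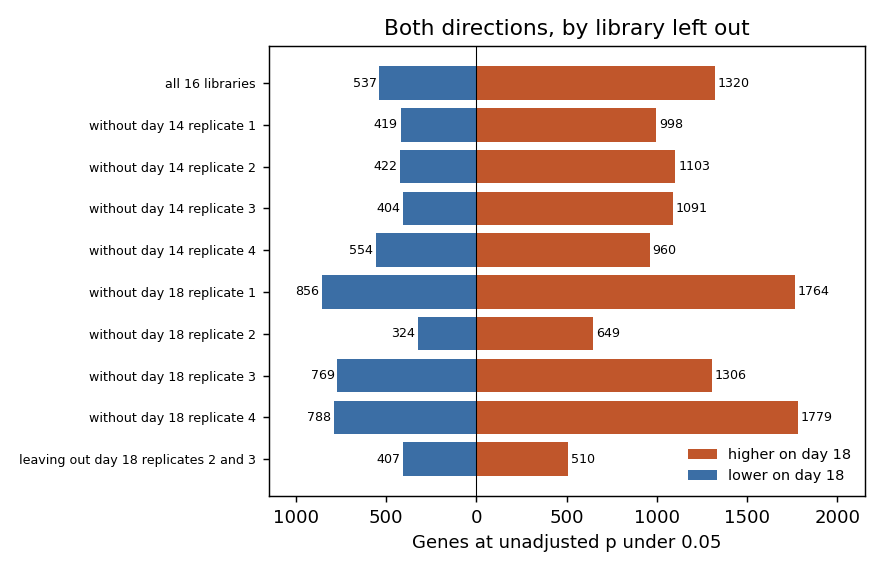
Number of genes at an unadjusted p under 0.05 by edgeR that were higher (right) or lower (left) on day 18, with all 16 libraries and with the libraries named on the vertical axis left out. The bars are 1320 and 537 with all libraries, 649 and 324 when day 18 replicate 2 is left out, and 510 and 407 when replicate 3 is left out too.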

How the data were processed

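Poly(A)-captured, stranded RNA-seq libraries were analysed from the read counts per gene that the authors deposited, raw and not normalised, in the layout of STAR. FastQC, STAR and edgeR are named without versions in the submitters' processing notes. For the build of the genome and its annotation, nothing is given in the sources used here. The count column of the matching strand was used, and 4 summary lines that name no gene were dropped. The line for reads mapping to several places is 0, so values of near-identical genes are uncertain. Reads without a gene feature made up 24.6% to 33.4% of the mapped reads in the 8 libraries, unmapped reads left out.

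Of 27607 IDs, edgeR's filterByExpr kept 16331. Counts were scaled by TMM and fitted with edgeR 4.0.16 in R 4.3.3 (robust quasi-likelihood, all 4 days, 12 residual degrees of freedom, Benjamini-Hochberg adjustment). Log2 CPM used a prior count of 2. The SE is the size of the log2 fold change divided by the square root of F. The procedure was also run on simulated data. The outcome of that run is not given here, and no result above rests on it. Alternatives were RLE and upper-quartile scaling, other filters, unstranded counts, DESeq2 1.42.0, limma-voom (limma 3.58.1), a fit to these 8 libraries, a replicate term and leaving libraries out. No pair of libraries of 1 day agreed within sampling noise (for 12 pairs, chi-square divided by its degrees of freedom was at least 51.9). The labels give no batch. The p-values of the main fit rest on the spread between animals of all 4 days, those of days 5 and 10 included. The median SD of log2 CPM was 0.44 on day 5 and 0.28 on day 10, against 0.51 on day 18. The comparison, gene lists and naming rule were chosen with earlier results of these data known. The lists and the parts of the rule that need symbols were not used, since 0 IDs matched the RefSeq table of ARS-UCD2.0, so the rule gave 2 IDs per direction.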

Additional observations from a re-analysis of the deposited data

Results flagged for a closer look

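Of 18 groups of 4 libraries examined, 1 held a value far from the remaining 3, where chance alone gives about 1 group in 20. This was ENSBTAG00000052518 on day 18, at 7.43 log2 CPM in replicate 4 against 8.19 to 8.25 in the other 3 libraries.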

How the results depend on the processing

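The log2 differences of the 4 genes given by ID kept their direction in all 21 alternatives, within 0.97 to 1.35 for ENSBTAG00000052518, 1.78 to 2.96 for ENSBTAG00000009733, -1.64 to -1.29 for ENSBTAG00000007170 and -3.97 to -2.87 for ENSBTAG00000050427. They passed an adjusted p of 0.05 with DESeq2, which called 279 genes, ENSBTAG00000007170 also without day 14 replicate 2 (adjusted p = 0.00909 by edgeR) and ENSBTAG00000052518 also without day 18 replicate 4. The other 18 alternatives called 0 genes. In the fit to these 8 libraries alone, each of the 4 genes given by ID had an adjusted p of 0.674 by edgeR. Genes at an unadjusted p under 0.05, and those of them higher on day 18, numbered 892 and 482 with limma-voom, 1128 and 765 in a fit to these 8 libraries alone, and 917 and 510 without day 18 replicates 2 and 3; without day 5 replicate 3 as well, 768 were higher. With 1 library left out, the adjusted count ran from 0 to 1 and the unadjusted from 973 (5.89%) to 2620 (15.8%). The higher ran from 649 to 1779 and the lower from 324 to 856. Genes without overlap, again not set against the number that chance gives, then ran from 458 to 919 higher and from 394 to 775 lower. Fewer libraries separate more easily, and the numbers were 1205 and 1224 without day 18 replicates 2 and 3. They were 1227 and 1196 without day 5 replicate 3 as well. The median SD of day 18 was 0.29 in both of these settings, where it rests on 2 libraries, and 0.41 to 0.52 with 1 library left out. The cause of the other shifts was not tested.

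Same-numbered libraries of the 2 days did not deviate together (correlations of -0.19 to 0.05, with 0 of 8 libraries closest to their own number). Whether they share anything beyond the number cannot be told from so few libraries. A replicate block left 0 genes called by edgeR, with 1436 (8.79% of those tested) at an unadjusted p under 0.05. In the fit to these 8 libraries alone, a replicate block left 786 (5.01%), of which 418 were higher. Alternatives on gene lists were not run, as no list could be matched.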
